A study of Homo sapiens with 48 samples.

Results

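The changes that 4 clones of one myeloma line shared after 72 h of doxycycline (Dox) were followed gene by gene. They were read from 23 of the 48 libraries of the series, namely the 12 libraries of 0 h and 11 of the 12 libraries of 72 h. AMO1 is an established human multiple myeloma line that was derived from a plasmacytoma. All clones carried shRNAs that Dox switches on, and how these clones were picked is not given in the sources used here. Per the labels, shIRE1 clones 1 and 3 share 1 set of 3 numbered shRNAs against ERN1, the gene of IRE1, and shXBP1 clones 1 and 18 share 1 set of 3 against XBP1. The 0 h cells carried the shRNAs but received no Dox, and the 72 h cells received 0.2 µg/ml, in 3 biological replicates of each clone. A gene was called common where it differed between 72 h and 0 h in the same direction in each of the 4 clones, at an adjusted p below 0.05 in edgeR's quasi-likelihood test. By that rule 189 genes were lower and 131 genes were higher, of 18011 genes tested and 58302 in the count table. The higher count was 40 without shXBP1 clone 18, 72 h replicate 2 and 66 with a replicate block, and the lower count was 133 and 162. Called whichever library was left out were 105 lower and 25 higher genes.

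IRE1 is a transmembrane sensor of the endoplasmic reticulum (ER), the compartment where secreted and membrane proteins are folded and glycosylated. When unfolded proteins build up, its cytosolic RNase cuts XBP1 mRNA, and the spliced mRNA encodes XBP1s, a transcription factor that turns on genes for protein import, folding, glycosylation, degradation and export. Plasma cells need this branch of the unfolded protein response to secrete antibody, and myeloma cells are malignant plasma cells. A gene that depends on XBP1s would be lower after loss of either protein. Dox and shRNA expression were also common to all 4 clones. Dox inhibits mitochondrial ribosomes, and shRNAs use the cell's small RNA machinery. No libraries with a non-targeting shRNA were analysed here, so what Dox alone or the shRNAs alone do cannot be told apart from effects of the shared pathway.

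Levels are given as CPM, a gene's counts scaled to the size of the library. The libraries held between 19177855 and 36736372 counts, and a single count was worth 0.0521 CPM or less. All 10 plasma cell markers were detected at 1 CPM or more, and their summed level was 14700 to 20500 CPM at 0 h and 9560 to 15700 CPM at 72 h. Of the markers of other cell types, 2 of 6 for B cells, 2 of 5 for T cells, 1 of 5 for epithelial cells and none of 5 for myeloid or for stromal cells reached 1 CPM on average. PAX5, which defines B cells, did not pass 0.0412 CPM in any library, and CD2, MPO and DCN were at 0 throughout. The library labelled shXBP1 clone 18, 72 h replicate 3 was left out. It was nearer to shXBP1 clone 1 at 106 of 112 genes that lay at least 3 apart on the log2 scale between the shXBP1 clones at 0 h, and its correlation across genes was 0.9935 to 0.9949 with the single 72 h libraries of that clone and 0.9832 on average with those of its own label. With it kept, 221 lower and 155 higher genes were common, of which 173 and 83 were shared with the counts above, and the ER lists described below, in the order given, had 15, 14, 9, 17 and 18 genes lower. In bulk RNA, fewer cells of a type and less RNA per cell cannot be told apart.

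ERN1 and XBP1, the targets, were read first. ERN1 in shIRE1 clone 1 went from 151, 148 and 153 CPM without Dox to 101, 98.5 and 101 CPM after 72 h, and in clone 3 from 410.5, 443 and 436 to 120.2, 123 and 126 CPM. For ERN1, shXBP1 clone 1 gave 188, 191 and 182 CPM without Dox and 309, 314 and 309 CPM after 72 h, and clone 18 gave 410.2, 403 and 405 CPM and 358 and 346 CPM. All 72 h libraries were below all 0 h libraries in both shIRE1 clones and in shXBP1 clone 18, and above them in shXBP1 clone 1. The log2 fold changes were -0.59, -1.81, 0.73 and -0.20 (SE 0.0368 to 0.0409), in the order shIRE1 clone 1, shIRE1 clone 3, shXBP1 clone 1 and shXBP1 clone 18, which is kept below. ERN1 was therefore not among the common genes, and the call in shXBP1 clone 18 (edgeR, adjusted p = 0.00235) was lost without shXBP1 clone 18, 72 h replicate 2, at 0.0735. XBP1 in shIRE1 clone 1 went from 181, 175 and 174 CPM without Dox to 130, 136 and 139 CPM after 72 h, and in clone 3 from 239, 202 and 198 to 118, 116 and 122 CPM. For XBP1, shXBP1 clone 1 gave 157, 170.3 and 172 CPM without Dox and 32.8, 33.7 and 34.3 CPM after 72 h, and clone 18 gave 163, 175 and 163 CPM and 41.3 and 40.1 CPM. Groups did not overlap in any clone. The log2 fold changes of XBP1 were -0.39, -0.84, -2.31 and -2.04 (SE 0.0572 to 0.0706; edgeR, largest adjusted p = 4.6e-06), so it belonged to the common genes. At 24 h it had not passed the test in shIRE1 clone 1, at a log2 fold change of 0.09, and was at -0.14 in shIRE1 clone 3, whereas it was at -1.90 and -1.44 in the shXBP1 clones. The table counts all XBP1 transcripts, so the spliced form was not measured.

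The clones differed widely in how many genes moved. In shIRE1 clone 1, 28.7% of the genes tested were lower and 28.7% were higher at 72 h, and in shIRE1 clone 3 the shares were 30% and 29.6%. Fewer genes moved in shXBP1 clone 1 (20.4% lower, 19.8% higher) and fewest in shXBP1 clone 18 (4.16% lower, 4.11% higher). The common genes came to 1.05% lower (189) and 0.727% higher (131) of all genes tested. At an unadjusted p below 0.05 in each clone the counts were 309 lower and 313 higher. A further 283 genes were called in all 4 clones with mixed signs. Another 908 lower and 965 higher genes were called the same way in the other 3 clones and not in shXBP1 clone 18. In terms of raw separation, 430 genes (2.39%) had all 72 h libraries below all 0 h libraries in each clone, and 487 genes (2.7%) had them above. All 189 lower genes and 129 of the 131 higher genes were among these.

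A fit of 1 average change with the clone as a block called many more genes, 4199 lower (23.3%) and 4246 higher (23.6%). All common genes were among them. Of the genes called with the block, 4608 had log2 fold changes of unlike sign over the 4 clones, whatever their p. Among those called lower, 338 were called higher in at least 1 clone, and among those called higher, 196 were called lower in at least 1 clone. The genes described below are therefore those called in each clone separately.

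The common lower genes were abundant and mostly protein coding, and genes of the ER and its export route were frequent among them. Their median level was 6.58 log2 CPM, against 3.31 over all genes tested, and 175 of 189 (92.6%) were protein coding, against 70.3% of all genes tested. A test passes more readily for an abundant gene, so the rule itself favours such genes. Exons of 113 lower genes (59.8%) overlap those of another gene, against 49.3% of all genes tested, and where strand was not used in counting their reads may be shared. In the 5 lists that describe the ER and its export route, 68 of 174 genes tested were lower in all 4 clones (39.1%) and 0 were higher, against 1.05% lower over all genes. Higher in all 4 clones at an unadjusted p below 0.05, or by DESeq2 or limma, there were also 0. These 68 genes made up 36% of the 189 lower genes, and 107 lower genes were in none of the 23 lists. The 189 genes summed to 4.62% to 5.71% of all counts at 0 h and 2.80% to 3.73% at 72 h. Without the immunoglobulin genes IGHA1 and IGHV3-23 they summed to 3.87% to 4.47% and 2.41% to 3.27%.

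Of the genes for protein import into the ER, 14 of 25 were lower in all 4 clones (56%). The list's medians were -0.60, -0.80, -0.36 and -0.47 on the log2 scale, against medians of all genes tested between 0.00 and 0.02. In the clones taken singly, 23, 24, 16 and 18 of the 25 were lower and 1, 1, 1 and 2 were higher. The called genes covered the translocon channel (SEC61A1, SEC61B and SEC61G), its partners SEC63 and TRAM1, and all 4 subunits of the translocon-associated complex (SSR1 to SSR4). They also covered the signal recognition particle and its receptor (SRP19, SRP68 and SRPRB) and signal peptidase (SEC11C and SPCS3). SSR1 in shIRE1 clone 1 went from 567, 543 and 514 CPM without Dox to 164, 169 and 178 CPM after 72 h, and in clone 3 from 581, 531 and 522 to 169, 168 and 187 CPM. For SSR1, shXBP1 clone 1 gave 442, 535 and 526 CPM without Dox and 220.3, 227 and 229.6 CPM after 72 h, and clone 18 gave 575, 618 and 596 CPM and 279.7 and 308 CPM. No 72 h library of SSR1 reached any 0 h library. A lack of overlap in each clone was a condition for the 12 lower and 12 higher leading genes, SSR1, P4HB, MYDGF and ZNF608 among them. Its log2 fold changes were -1.67, -1.64, -1.15 and -1.02 (SE 0.0661 to 0.0752; edgeR, largest adjusted p = 3.31e-09), of at least 1 in size in every clone. SSR3, of the same complex, changed by -1.17, -1.60, -0.69 and -1.07 (edgeR, largest adjusted p = 7.25e-08), and SSR4, picked after its values were seen, by -0.49, -0.80, -0.67 and -0.89 (SE 0.103 to 0.117). SPCS3, a subunit of signal peptidase, which cuts off the signal peptide, changed by -0.93, -1.23, -0.75 and -0.67.

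Among the chaperones and oxidoreductases of the ER lumen, 14 of 34 were lower in all 4 clones (41.2%), with list medians of -1.01, -1, -0.31 and -0.40. They held CANX, a lectin chaperone, HYOU1, DNAJB9, DNAJC3 and CRELD2, the disulfide isomerases P4HB, PDIA4, PDIA5 and TXNDC11, the prolyl isomerases PPIB, FKBP2, FKBP11 and FKBP14, and MZB1, a plasma cell cochaperone. In the clones taken singly, 29, 31, 22 and 19 of the 34 were lower and 2, 1, 2 and 4 were higher. P4HB in shIRE1 clone 1 went from 1039, 1058 and 1114 CPM without Dox to 490.2, 475 and 479.5 CPM after 72 h, and in clone 3 from 1158, 1171 and 1257 to 474, 470.4 and 466 CPM. For P4HB, shXBP1 clone 1 gave 1319, 1197 and 1259 CPM without Dox and 682, 656 and 659.9 CPM after 72 h, and clone 18 gave 1633, 1541 and 1628 CPM and 874 and 824 CPM. In each clone its 72 h level was below every 0 h library, with log2 fold changes of -1.15, -1.35, -0.92 and -0.92 (SE 0.044 to 0.0502; edgeR, largest adjusted p = 2.65e-11). DNAJB9 encodes ERdj4, a cochaperone of BiP that also holds IRE1 inactive. DNAJB9 in shIRE1 clone 1 went from 39.7, 40.1 and 40.3 CPM without Dox to 15.1, 15.8 and 14.6 CPM after 72 h, and in clone 3 from 86.8, 71.7 and 75.5 to 14.8, 13.5 and 15.8 CPM. For DNAJB9, shXBP1 clone 1 gave 44.9, 52.4 and 48.2 CPM without Dox and 27.9, 27.3 and 27.2 CPM after 72 h, and clone 18 gave 93.7, 97.5 and 93.5 CPM and 30.3 and 33.9 CPM. The clones thus began and ended at unlike levels, and the log2 fold changes of -1.40, -2.41, -0.82 and -1.56 differed among them (edgeR, adjusted p = 1.62e-10). FKBP11 changed by -0.81, -1.37, -1.13 and -1.19, with a shIRE1 minus shXBP1 difference of 0.07 (95% confidence interval -0.07 to 0.20). Such intervals, here and below, rest on the spread between replicate libraries and leave out that between the clones of a target.

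Those degradation and glycosylation genes that were called in all 4 clones were likewise lower. Of the genes for ER-associated degradation, 8 of 27 were lower in all 4 clones (29.6%), with medians of -0.53, -0.44, -0.25 and -0.21. They were the ubiquitin ligase SYVN1, the Derlins DERL1 and DERL2, SELENOS, AUP1 and VCP, which help to move proteins out of the membrane, and the glycan readers EDEM2 and ERLEC1. In the clones taken singly, 21, 22, 14 and 13 of the 27 were lower and 1, 1, 1 and 0 were higher. Only 13 of the 27 had a log2 fold change below 0 in every clone. SELENOS in shIRE1 clone 1 went from 69, 71.8 and 65.8 CPM without Dox to 39.1, 38.6 and 38.1 CPM after 72 h, and in clone 3 from 79.2, 70.7 and 70.3 to 30.7, 32.2 and 28.9 CPM. For SELENOS, shXBP1 clone 1 gave 71.2, 67.2 and 67 CPM without Dox and 49.2, 52.5 and 50.2 CPM after 72 h, and clone 18 gave 77.5, 78.1 and 81.5 CPM and 56.4 and 56.6 CPM. Its log2 fold changes were -0.84, -1.26, -0.44 and -0.48 (SE 0.0537 to 0.0606; edgeR, largest adjusted p = 1.01e-05), and no groups overlapped. DERL2 changed by -0.59, -0.41, -0.47 and -0.45 and ERLEC1 by -0.53, -0.96, -0.36 and -0.62. In the N-glycosylation list 17 of 42 genes were lower (40.5%), with medians of -0.59, -0.69, -0.31 and -0.26. Subunits of the oligosaccharyltransferase that transfers the glycan (STT3A, RPN1, RPN2, DDOST, OSTC and MAGT1), enzymes that build it (DPAGT1, ALG2, ALG5, DPM2, PGM3 and UAP1), the trimming glucosidase subunits GANAB and PRKCSH and the cargo lectins LMAN1 and LMAN2 were among them. In the clones taken singly, 33, 33, 24 and 22 of the 42 were lower and 1, 1, 2 and 0 were higher. RPN1 in shIRE1 clone 1 went from 646, 662 and 646 CPM without Dox to 254, 262 and 255 CPM after 72 h, and in clone 3 from 649.9, 594 and 612 to 235, 231 and 239.5 CPM. For RPN1, shXBP1 clone 1 gave 729.9, 681 and 676 CPM without Dox and 450, 455 and 458 CPM after 72 h, and clone 18 gave 769, 766 and 783 CPM and 516 and 510.4 CPM. RPN1 was lower in every 72 h library, by -1.34, -1.40, -0.61 and -0.59 on the log2 scale (SE 0.0385 to 0.0436; edgeR, largest adjusted p = 3.37e-09). STT3A, the catalytic subunit, changed by -1.09, -1.17, -0.72 and -0.63 and OSTC by -0.60, -0.99, -0.88 and -0.97.

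Of the genes for transport between the ER and the Golgi, 15 of 46 were lower in all 4 clones (32.6%), with medians of -0.42, -0.70, -0.25 and -0.36. They held the cargo receptors TMED2, TMED3, TMED5, TMED9, TMED10, SURF4 and MCFD2 and the retrieval receptors KDELR1 and KDELR2. Also among them were coat proteins and coat regulators of either direction (SEC13, SEC24D, PREB, COPG1 and ARF4) and BHLHA15, a transcription factor of secretory cells. In the clones taken singly, 34, 40, 28 and 30 of the 46 were lower and 3, 1, 2 and 0 were higher. TMED9 in shIRE1 clone 1 went from 324, 323 and 324 CPM without Dox to 179, 177 and 179.6 CPM after 72 h, and in clone 3 from 347, 318 and 335 to 167, 179.7 and 164 CPM. For TMED9, shXBP1 clone 1 gave 408, 379.6 and 373 CPM without Dox and 211, 204 and 204 CPM after 72 h, and clone 18 gave 426, 404 and 415 CPM and 237 and 225 CPM. TMED9 showed nearly the same fall in each clone, -0.86, -0.97, -0.91 and -0.85 on the log2 scale (SE 0.0445 to 0.0506; edgeR, largest adjusted p = 1.09e-10). Its shIRE1 minus shXBP1 difference was -0.04 (95% confidence interval -0.13 to 0.06). GMPPA, a regulator of GDP-mannose supply (-0.84, -0.99, -0.83 and -0.83), and HM13, the signal peptide peptidase (-0.79, -0.82, -0.69 and -0.73), had the narrowest ranges over the clones beside TMED9 among genes that fell by at least 0.5 in each. SEC24D, the COPII subunit that binds cargo, fell by unlike amounts, -1.19, -2.07, -0.91 and -1.04 on the log2 scale.

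**Figure D1:**
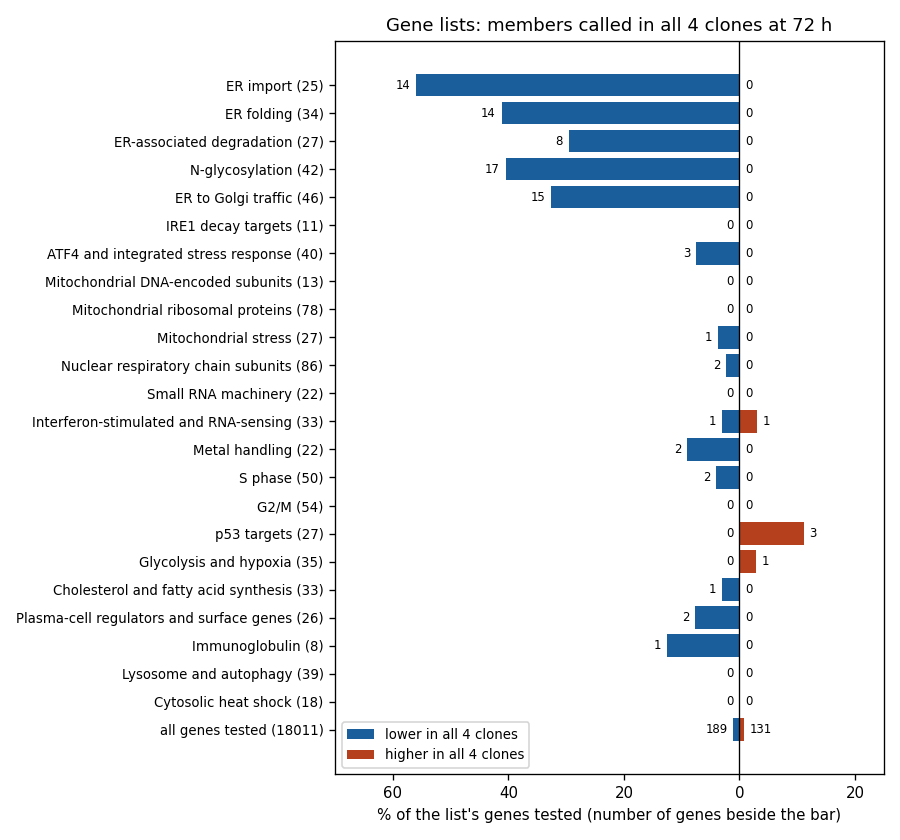
Share of each gene list called lower (blue, to the left) or higher (red, to the right) in all 4 clones at 72 h, in percent of the list's genes tested, with the number of genes beside each bar and the genes tested in brackets. The 5 ER and traffic lists at the top reach 29.6% to 56% lower, against 1.05% of all genes tested in the bottom row.

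The remaining lists had few members called in all 4 clones, at most 12.5% of a list lower and 11.1% higher. Over all genes tested the shares were 1.05% and 0.727%. BHLHA15, a plasma cell regulator as well, had log2 fold changes of -1.42, -1.56, -2.45 and -2.15 (SE 0.329 to 0.401), the largest smallest change among the common lower genes with a mean above 1 log2 CPM. BHLHA15 in shIRE1 clone 1 went from 2.27, 2.4 and 3.37 CPM without Dox to 1.12, 0.932 and 0.959 CPM after 72 h, and in clone 3 from 1.95, 2.47 and 4.19 to 1.21, 1.17 and 0.515 CPM. For BHLHA15, shXBP1 clone 1 gave 13.1, 6.37 and 5.41 CPM without Dox and 1.81, 1.45 and 1.31 CPM after 72 h, and clone 18 gave 7.35, 5.02 and 5.78 CPM and 1.79 and 0.858 CPM. These levels rest on 51 to 395 counts at 0 h and 15 to 55 counts at 72 h, with the call lost without shXBP1 clone 18, 72 h replicate 2 (edgeR, adjusted p = 0.0525). IGHA1, the constant region of the IgA1 heavy chain, was the 1 called of the 8 genes tested in the immunoglobulin list, which does not hold IGHV3-23, and reads of its near copy IGHA2 may be split between them. IGHA1 in shIRE1 clone 1 went from 7399, 8468 and 9619 CPM without Dox to 5896, 5217 and 4813 CPM after 72 h, and in clone 3 from 8547, 8935 and 10760 to 4609, 4703 and 3504 CPM. For IGHA1, shXBP1 clone 1 gave 16950, 11930 and 11960 CPM without Dox and 4398, 3549 and 3556 CPM after 72 h, and clone 18 gave 10680, 9251 and 10180 CPM and 4620 and 3240 CPM. The antibody gene was thus lower by -0.68, -1.14, -1.83 and -1.35 on the log2 scale (edgeR, largest adjusted p = 0.000513).

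ATF4 is induced by the stress kinases of the integrated stress response. In the list of genes under ATF4, 3 of 40 were lower in all 4 clones (7.5%, against 1.05% of all genes tested). SLC1A4, a carrier of neutral amino acids, was among them. SLC1A4 in shIRE1 clone 1 went from 219, 223 and 216 CPM without Dox to 111, 114 and 115 CPM after 72 h, and in clone 3 from 268, 247 and 244 to 129, 121 and 127 CPM. For SLC1A4, shXBP1 clone 1 gave 303, 292 and 299.5 CPM without Dox and 112, 122 and 113 CPM after 72 h, and clone 18 gave 216, 211 and 216 CPM and 109 and 104 CPM. It was lower in each clone, at -0.95, -1.01, -1.37 and -1.0 on the log2 scale (SE 0.0436 to 0.0501; edgeR, largest adjusted p = 7.38e-12). SLC3A2, the heavy chain of amino acid exchangers, changed by -0.99, -1.25, -0.68 and -0.32 and ATF4 itself by -0.53, -1.30, -0.18 and -0.20. SLC3A2 lost a call without any 1 of shXBP1 clone 18, 0 h replicates 1 and 3 or 72 h replicates 1 and 2 (largest adjusted p = 0.223, edgeR). ATF4 lost a call without any 1 of shIRE1 clone 1, 0 h replicates 1, 2 and 3 or 72 h replicate 3 and shXBP1 clone 1, 0 h replicates 1 and 3 or 72 h replicate 3 and shXBP1 clone 18, 0 h replicates 1, 2 and 3 or 72 h replicates 1 and 2 (largest adjusted p = 0.188, edgeR). The list's medians were -0.51, -1.34, -0.07 and -0.12. Leaving out 1 library at a time gave 1 to 3 called genes, with 1 without shXBP1 clone 18, 0 h replicate 1.

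Lists chosen for effects of Dox or of shRNAs held few common genes, as did all genes tested (1.05% lower and 0.727% higher). At such shares a list of this size can hold 0 called genes, so a 0 here does not set a list apart. Of the respiratory chain subunits encoded by mitochondrial DNA, 0 of 13 were called in all 4 clones, and 0 at an unadjusted p below 0.05, by DESeq2 or by limma. The list's medians were -0.04, 0.26, -0.36 and -0.08. In the clones taken singly, 2, 8, 0 and 0 of the 13 were higher and 5, 1, 9 and 1 were lower. Among mitochondrial ribosomal proteins 0 of 78 were called by edgeR, DESeq2 or limma, with 1 at an unadjusted p below 0.05, although 46, 35 and 43 were lower in shIRE1 clone 1, shIRE1 clone 3 and shXBP1 clone 1 taken singly and 1 in shXBP1 clone 18. ATP5G1 (-0.52, -0.57, -0.47 and -0.34) and NDUFB6 (-0.71, -0.65, -0.33 and -0.33), of the nuclear-encoded respiratory chain, and the chaperonin gene HSPE1 (-0.66, -0.29, -0.32 and -0.40) were the called members of the other mitochondrial lists. That was 2 of 86 respiratory chain genes (2.33%) and 1 of 27 mitochondrial stress genes (3.7%). ATP5G1 lost a call without any 1 of shXBP1 clone 18, 0 h replicates 1, 2 and 3 or 72 h replicates 1 and 2 (largest adjusted p = 0.193, edgeR). NDUFB6 lost a call without shXBP1 clone 18, 72 h replicate 2 (adjusted p = 0.0507, edgeR). HSPE1 lost a call without shXBP1 clone 18, 72 h replicate 2 (adjusted p = 0.0527, edgeR). In the fit of 47 libraries of all times, HSPE1 was not called in shIRE1 clone 3, shXBP1 clone 1 or shXBP1 clone 18 (adjusted p = 0.089, 0.0741 and 0.148, edgeR). In the small RNA machinery 0 of 22 genes were called by edgeR, DESeq2 or limma, and 0 at an unadjusted p below 0.05. Of 33 interferon-stimulated genes, which double-stranded RNA can induce, 1 was lower in all 4 clones, IFIT3, which encodes an RNA-binding antiviral protein, and 1 was higher. IFIT3 changed by -1.03, -1.28, -1.74 and -0.56. IFIT3 lost a call without any 1 of shXBP1 clone 18, 0 h replicate 3 or 72 h replicates 1 and 2 (largest adjusted p = 0.105, edgeR). In the shIRE1 clones 24 and 24 genes of that list were higher, with medians of 0.91 and 1.17, and in the shXBP1 clones 8 and 2 were, with medians of 0.03 and -0.26.

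Cell cycle genes moved with the clones and not in common. All 50 S phase genes were lower in each shIRE1 clone, 42 in shXBP1 clone 1 and 2 in shXBP1 clone 18, with list medians of -1.11, -1.24, -0.33 and 0.03. Lower in all 4 clones were 2 of 50 (4%), against 1.05% of all genes tested. They were CDC6, which loads the replicative helicase, and FEN1, which trims Okazaki fragments. CDC6 in shIRE1 clone 1 went from 282, 284 and 266 CPM without Dox to 78.2, 78.2 and 78.4 CPM after 72 h, and in clone 3 from 183, 189.9 and 183 to 44.6, 44.1 and 51.5 CPM. For CDC6, shXBP1 clone 1 gave 259.6, 282 and 281 CPM without Dox and 158, 168 and 165 CPM after 72 h, and clone 18 gave 179, 176 and 172 CPM and 136 and 144 CPM. CDC6 changed by -1.82, -1.99, -0.75 and -0.32 on the log2 scale (edgeR, largest adjusted p = 0.000727), and FEN1 by -1.12, -1.31, -0.43 and -0.18. FEN1 lost a call without any 1 of shXBP1 clone 18, 0 h replicate 1 or 72 h replicate 2 (largest adjusted p = 0.198, edgeR). Of 54 mitosis genes 0 were called in all 4 clones by edgeR, DESeq2 or limma, and 0 at an unadjusted p below 0.05, while 54 and 53 were lower in the shIRE1 clones, 26 in shXBP1 clone 1, and 18 were higher in shXBP1 clone 18. Among 11 mRNAs known as targets of IRE1's RNase other than XBP1, 0 were called in all 4 clones by the 3 tools, with 1 lower at an unadjusted p below 0.05. The lysosome list (39 genes) and the cytosolic heat shock list (18 genes) likewise had 0 called by the 3 tools, with 1 and 0 at an unadjusted p below 0.05. SLC39A7, a zinc exporter of the ER (-0.30, -0.43, -0.57 and -0.51), and FTL, the ferritin light chain (-0.57, -0.34, -0.87 and -0.22), were the called ones of 22 metal-handling genes, and EBP of 33 cholesterol and fatty acid genes (-1.02, -1.25, -0.27 and -0.23). FTL lost a call without any 1 of shXBP1 clone 18, 0 h replicates 1 and 3 or 72 h replicate 2 (largest adjusted p = 0.436, edgeR). EBP lost a call without any 1 of shIRE1 clone 1, 0 h replicates 1, 2 and 3 and shIRE1 clone 3, 0 h replicate 3 and shXBP1 clone 18, 0 h replicates 1 and 3 or 72 h replicates 1 and 2 (largest adjusted p = 0.304, edgeR).

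Promoters of the common genes were read to show which short words known from the unfolded protein response they hold. XBP1s binds sites with the core ACGTG, in the form TGACGTGG or within a CCACG element, and the split element CCAAT and CCACG parted by 9 bases is bound by NF-Y together with ATF6. The windows were RefSeq promoters (GRCh38.p14) from 250 bases before to 50 after each gene's start. A promoter was found by symbol for 148 of 189 lower genes, 103 of 131 higher genes and 10393 of 18011 genes tested. Each word was sought on both strands, in any start of a gene. ACGTG stood in 59.5% of the lower genes, 30.1% of the higher genes and 32.1% of all genes tested. For genes with a single start the shares were 58.7%, 24.2% and 27.6%. CCACG, which can overlap ACGTG by its last letters, stood in 68.9%, 47.6% and 56.4%. TGACGTGG, which always holds ACGTG and CCACG (the latter on the other strand), stood in 10, 3 and 120 genes (6.76%, 2.91% and 1.15%). The split element stood in 5 lower genes (3.38%), CANX, CRELD2, FICD, SERP1 and XBP1, named because they held it, in 0 higher genes and in 0.154% of all genes tested. TGATGNAA, a word bound by ATF4, stood in 3.38%, 2.91% and 2.77%. A word is a match of letters and no measured binding. The lower genes were also more abundant and more often protein coding than all genes tested. No set of genes matched for this was compared.

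Below are the 250 bases before the start of XBP1 (chr22:28800570-28800819, minus strand), which holds the split element, of SSR4 (chrX:153794418-153794667, plus strand), which holds TGACGTGG on the other strand, of DNAJB9 (chr7:108569624-108569873, plus strand) and SSR1 (chr6:7313200-7313449, minus strand), which hold ACGTG more than once, and of ZNF608 (chr5:124748825-124749074, minus strand), the leading common higher gene, for contrast. Capitals mark the XBP1s words and both parts of the split element on either strand, and each sequence runs 5′ to 3′ on the gene's strand.
XBP1: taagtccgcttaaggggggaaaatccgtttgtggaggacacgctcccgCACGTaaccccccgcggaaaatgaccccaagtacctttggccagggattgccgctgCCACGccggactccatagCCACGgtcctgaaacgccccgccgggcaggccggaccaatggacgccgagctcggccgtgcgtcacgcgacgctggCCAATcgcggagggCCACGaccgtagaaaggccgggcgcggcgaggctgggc
SSR4: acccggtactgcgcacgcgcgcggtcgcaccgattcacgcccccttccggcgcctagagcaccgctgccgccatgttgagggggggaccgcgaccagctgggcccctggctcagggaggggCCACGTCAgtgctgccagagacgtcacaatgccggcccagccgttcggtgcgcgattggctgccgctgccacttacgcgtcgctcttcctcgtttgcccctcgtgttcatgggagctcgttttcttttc
DNAJB9: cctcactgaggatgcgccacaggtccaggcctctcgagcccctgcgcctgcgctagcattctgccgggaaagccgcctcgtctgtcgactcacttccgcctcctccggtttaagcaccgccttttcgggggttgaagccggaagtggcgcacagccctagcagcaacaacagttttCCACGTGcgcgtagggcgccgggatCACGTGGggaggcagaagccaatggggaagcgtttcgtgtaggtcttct
SSR1: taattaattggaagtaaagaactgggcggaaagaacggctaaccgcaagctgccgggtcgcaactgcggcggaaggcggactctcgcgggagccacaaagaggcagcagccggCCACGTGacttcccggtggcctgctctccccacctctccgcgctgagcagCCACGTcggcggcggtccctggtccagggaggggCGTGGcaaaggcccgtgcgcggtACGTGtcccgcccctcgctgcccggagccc
ZNF608: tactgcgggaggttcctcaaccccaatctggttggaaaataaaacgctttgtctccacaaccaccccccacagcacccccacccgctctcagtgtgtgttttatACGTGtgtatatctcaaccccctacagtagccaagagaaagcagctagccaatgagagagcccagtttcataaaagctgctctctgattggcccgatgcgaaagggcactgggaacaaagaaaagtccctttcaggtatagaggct

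The promoters shown are examples and no sample of the common genes. XBP1 and SSR4 have 2 starts each, and a start that held the split element or the long word is shown. Of the lower genes named, P4HB, SPCS3, DERL2, SEC61B, MAGT1 and NDUFB6 held none of the words sought. The promoters of the lower genes shown differed in which words they held and where. XBP1 held the split element close to its start, SSR1 held ACGTG in several places, and SSR4 held the long word once. ZNF608 held ACGTG alone.

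The common higher genes were less abundant than the lower ones, and the smallest of their 4 changes was smaller in the median. Their median level was 5.06 log2 CPM, and 117 of 131 were protein coding and 11 lncRNAs. The smallest of a gene's 4 changes had a median size of 0.29 on the log2 scale (range 0.1 to 1), against 0.36 (range 0.12 to 1.75) for the lower genes. At least 0.5 in size in each clone was reached by 11 higher and 49 lower genes, and at least 1 by 1 and 4. The 131 genes summed to 0.569% to 0.737% of all counts at 0 h and 0.798% to 1.54% at 72 h. Of these genes, 126 belonged to none of the 23 lists. ZNF608 encodes a zinc finger protein. ZNF608 in shIRE1 clone 1 went from 8.36, 6.36 and 7.52 CPM without Dox to 24.9, 23.4 and 23.7 CPM after 72 h, and in clone 3 from 9.34, 10.2 and 11.2 to 26.2, 26.3 and 26.7 CPM. For ZNF608, shXBP1 clone 1 gave 7.97, 8.55 and 7.51 CPM without Dox and 20.3, 22.1 and 21.7 CPM after 72 h, and clone 18 gave 12.7, 13.4 and 12.4 CPM and 21.4 and 22.2 CPM. ZNF608 rose by 1.70, 1.36, 1.41 and 0.76 on the log2 scale (SE 0.0831 to 0.0905; edgeR, largest adjusted p = 5.06e-06), without overlap of groups in any clone, and had the largest smallest change among the higher genes with a mean above 1 log2 CPM.

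SORL1 is a sorting receptor of the endosome. SORL1 in shIRE1 clone 1 went from 39.5, 39.6 and 38.8 CPM without Dox to 70.3, 72.7 and 73.9 CPM after 72 h, and in clone 3 from 12.6, 17.2 and 17.4 to 83, 82.9 and 94 CPM. For SORL1, shXBP1 clone 1 gave 6.47, 8.27 and 8.62 CPM without Dox and 12.2, 12.6 and 13.5 CPM after 72 h, and clone 18 gave 1.21, 1.31 and 1.02 CPM and 2.24 and 1.93 CPM. The starting levels of SORL1 differed far more between clones than the 72 h and 0 h levels within a shXBP1 clone did, and the log2 fold changes were 0.88, 2.46, 0.71 and 0.82. CD96 is a receptor of T and NK cells. CD96 in shIRE1 clone 1 went from 13.5, 14.6 and 14.7 CPM without Dox to 114, 118 and 119.6 CPM after 72 h, and in clone 3 from 12.9, 14.3 and 12.4 to 194, 187 and 216 CPM. For CD96, shXBP1 clone 1 gave 2.95, 3.62 and 3.2 CPM without Dox and 6.22, 6.99 and 7.27 CPM after 72 h, and clone 18 gave 3.35, 2.94 and 2.61 CPM and 4.16 and 4.86 CPM. CD96 rose in each clone, by 3.04, 3.92, 1.06 and 0.62 on the log2 scale (edgeR, largest adjusted p = 0.00265). The mean rise of 2 clones was larger after shIRE1 by 2.64 (95% confidence interval 2.43 to 2.84). The summed level of the 5 T cell markers was 5.65 to 14.5 CPM at 0 h and 8.04 to 18.8 CPM at 72 h, with CD2 at 0, and its part in this result was not tested. IL4R is the receptor chain for interleukin 4. IL4R in shIRE1 clone 1 went from 7.07, 8.4 and 7.91 CPM without Dox to 18.5, 18.3 and 15.3 CPM after 72 h, and in clone 3 from 7.96, 8.18 and 8.63 to 21.9, 18.7 and 17.1 CPM. For IL4R, shXBP1 clone 1 gave 9.89, 8.9 and 8.03 CPM without Dox and 14.3, 13.1 and 13.5 CPM after 72 h, and clone 18 gave 5.81, 6.14 and 6.12 CPM and 9.56 and 7.75 CPM. IL4R rose by 1.15, 1.22, 0.61 and 0.52 (edgeR, largest adjusted p = 0.011). SORL1 lost a call without any 1 of shXBP1 clone 18, 0 h replicate 3 or 72 h replicates 1 and 2 (largest adjusted p = 0.131, edgeR). IL4R lost a call without shXBP1 clone 18, 72 h replicate 1 (adjusted p = 0.171, edgeR). CD96 lost a call without shXBP1 clone 18, 72 h replicate 2 (adjusted p = 0.0905, edgeR).

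**Figure D2:**
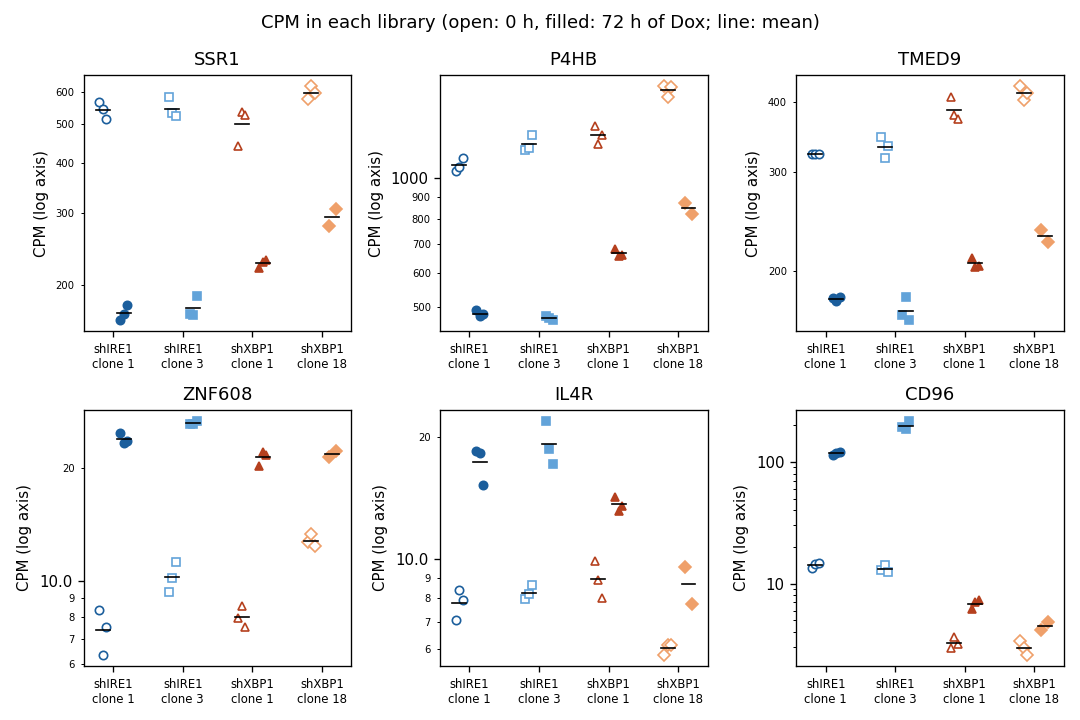
CPM of 3 lower genes (SSR1, P4HB and TMED9) and 3 higher genes (ZNF608, IL4R and CD96) in each library of each clone, on log axes, with open symbols for 0 h, filled symbols for 72 h and a line at the mean. In each clone the 72 h libraries lie apart from the 0 h libraries, for instance SSR1 at 164 to 308 CPM against 442 to 618 CPM. The rule that named these genes required this.

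Of the other leading higher genes, CUX2, a homeobox gene, rose by 1.32, 1.42, 0.48 and 0.52 (edgeR, largest adjusted p = 0.000262). L3MBTL3, a reader of methylated histones, rose by 0.64, 1.34, 0.52 and 0.55, and CHODL, a lectin-like membrane protein at 1.37 to 6.23 CPM, by 1.21, 1.75, 0.66 and 0.80. GCSAM, a signalling protein of germinal centre B cells, changed by 0.69, 0.83, 1.16 and 0.49, with a shIRE1 minus shXBP1 difference of -0.06 (95% confidence interval -0.24 to 0.12). The lncRNA JHDM1D-AS1 rose by 0.59, 0.48, 0.79 and 0.88, more after shXBP1 than after shIRE1 (edgeR, adjusted p = 0.00754). The lncRNAs AC097478.1 (1.27, 2.28, 0.59 and 0.54), AC080112.2 (1.42, 1.75, 0.50 and 0.55) and AC023510.1 (0.68, 0.57, 0.68 and 0.46) completed the 12. GCSAM lost a call without shXBP1 clone 18, 72 h replicate 2 (adjusted p = 0.0527, edgeR). AC097478.1 lost a call without any 1 of shXBP1 clone 18, 0 h replicates 1 and 3 or 72 h replicate 2 (largest adjusted p = 0.308, edgeR). AC080112.2 lost a call without any 1 of shXBP1 clone 1, 72 h replicate 3 and shXBP1 clone 18, 0 h replicates 1, 2 and 3 or 72 h replicates 1 and 2 (largest adjusted p = 0.17, edgeR). AC023510.1 lost a call without any 1 of shXBP1 clone 18, 0 h replicates 1 and 2 or 72 h replicates 1 and 2 (largest adjusted p = 0.272, edgeR).

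Of 27 genes under p53, FAS, a death receptor (0.79, 1.11, 0.24 and 0.26), PPM1D, a phosphatase that damps p53 (0.34, 0.48, 0.19 and 0.30), and RRM2B, a ribonucleotide reductase subunit (0.19, 0.70, 0.51 and 0.35), were higher in all 4 clones. These genes were 11.1% of the list, against 0.727% higher over all genes tested. The list's medians were 0.34, 0.68, -0.02 and 0.12. FAS lost a call without any 1 of shXBP1 clone 18, 0 h replicates 1 and 3 or 72 h replicate 2 (largest adjusted p = 0.459, edgeR). PPM1D lost a call without shXBP1 clone 18, 72 h replicate 2 (adjusted p = 0.0669, edgeR). RRM2B lost a call without any 1 of shIRE1 clone 1, 0 h replicates 2 and 3 or 72 h replicates 1, 2 and 3 and shXBP1 clone 18, 72 h replicate 2 (largest adjusted p = 0.233, edgeR). Leaving out 1 library at a time gave 0 to 5 called genes of this list. HK1, a hexokinase, was the 1 of 35 genes of glycolysis and hypoxia that was higher (0.56, 0.75, 0.25 and 0.38). HK1 lost a call without any 1 of shXBP1 clone 1, 0 h replicate 3 or 72 h replicates 1 and 2 and shXBP1 clone 18, 72 h replicate 1 (largest adjusted p = 0.0921, edgeR). The other lower genes that the rule named were MYDGF, a secreted growth factor kept in the ER (-1.26, -1.49, -0.91 and -0.88), PLPP5, a lipid phosphatase (-0.88, -1.29, -0.82 and -1.14), KCNAB1, a subunit of potassium channels (-1.32, -1.65, -0.85 and -1.18), and CCDC163 (-1.04, -1.19, -0.84 and -0.92). MYDGF in shIRE1 clone 1 went from 116, 113 and 120 CPM without Dox to 48.7, 48.5 and 48.1 CPM after 72 h, and in clone 3 from 137, 122 and 134 to 47.1, 51.7 and 41.2 CPM. For MYDGF, shXBP1 clone 1 gave 162, 144 and 142 CPM without Dox and 83.4, 78.1 and 76.8 CPM after 72 h, and clone 18 gave 218, 210.3 and 213 CPM and 119.8 and 112 CPM. Every 72 h library of MYDGF was below every 0 h library of its clone, which the rule that named it required.

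**Figure D3:**
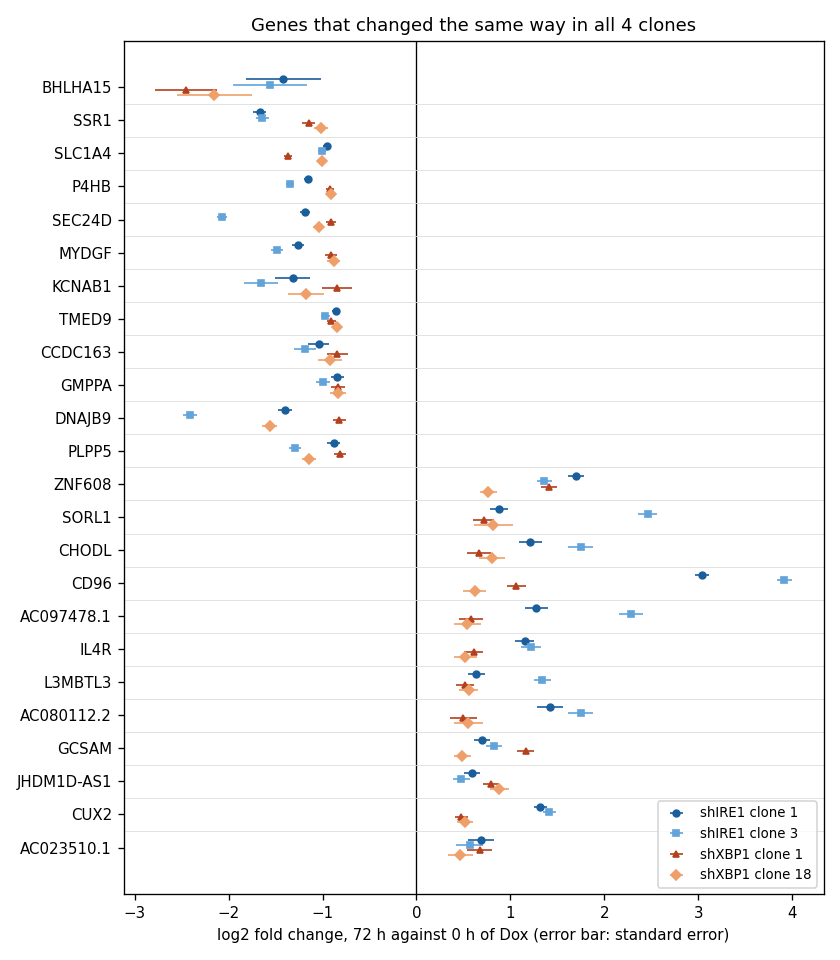
Log2 fold change at 72 h against 0 h, with its standard error, of the 12 lower and 12 higher genes with the largest smallest change over the clones, 1 symbol per clone. All 4 symbols of a gene lie on the same side of 0, which the choice of genes required. They lie closely together for TMED9 and GMPPA and far apart for CD96 and SORL1.

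Sharing a direction did not mean sharing a size. Over all genes, the response differed among the 4 clones for 12038 genes (66.8%), and it did so for 143 of the 189 lower and 104 of the 131 higher genes. The lower genes had medians of -0.68, -0.84, -0.48 and -0.47, and the higher genes 0.68, 0.70, 0.41 and 0.33. The largest change of a lower gene was in shIRE1 clone 3 for 96 genes, in shIRE1 clone 1 for 49, in shXBP1 clone 1 for 27 and in shXBP1 clone 18 for 17. Between the targets, 28.2% of all genes tested moved lower after shIRE1 than after shXBP1 and 28% moved higher. Among the common lower genes 101 fell further after shIRE1, 20 fell further after shXBP1 and 68 did not pass the test. Of the common higher genes 84 rose further after shIRE1, 4 rose further after shXBP1 and 43 did not pass the test. A difference between targets rests on 2 clones of each, and clone and target cannot be told apart beyond that. Its test and interval use the spread between replicate libraries and not that between clones.

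The 20 genes that fell further after shXBP1 included HID1, a protein of the trans-Golgi network, XBP1 itself, PLOD3, a lysyl hydroxylase of the ER, SEC61B and SEC61A1 of the translocon, MZB1, IGHA1, CNPY2 and SYVN1. Of these, HID1, PLOD3, SEC61A1, SEC61B, MZB1, CNPY2 and SYVN1 were picked after their values were seen. HID1 in shIRE1 clone 1 went from 7.11, 7.83 and 8.46 CPM without Dox to 5.21, 4.9 and 5.18 CPM after 72 h, and in clone 3 from 18.4, 17.7 and 20.2 to 7.01, 6.5 and 6.15 CPM. For HID1, shXBP1 clone 1 gave 14.4, 13.6 and 11.8 CPM without Dox and 3.19, 2.31 and 2.87 CPM after 72 h, and clone 18 gave 42.8, 36.8 and 42 CPM and 6.25 and 3.82 CPM. Its log2 fold changes were -0.62, -1.52, -2.25 and -3.0 (SE 0.126 to 0.152), a difference of 1.56 (95% confidence interval 1.27 to 1.85). SEC61B changed by -0.60, -0.46, -1.29 and -1.28 and SEC61A1, the channel-forming subunit, by -0.93, -0.66, -1.14 and -1.11 (edgeR, adjusted p of the differences 7.09e-06 and 1.13e-07). CNPY2, a cochaperone-like protein of the ER, changed by -0.24, -0.47, -0.82 and -1.03. CNPY2 lost a call without any 1 of shIRE1 clone 1, 0 h replicate 2 or 72 h replicates 1 and 3 (largest adjusted p = 0.111, edgeR). At the other end, the largest difference among the lower genes named was that of MAGT1, a subunit of the oligosaccharyltransferase, also picked after its values were seen. MAGT1 in shIRE1 clone 1 went from 165, 170.2 and 157 CPM without Dox to 13.7, 14.6 and 12.6 CPM after 72 h, and in clone 3 from 132, 136 and 129 to 13, 12.4 and 14.7 CPM. For MAGT1, shXBP1 clone 1 gave 155, 186 and 186 CPM without Dox and 126, 130.5 and 129 CPM after 72 h, and clone 18 gave 174, 179 and 179.8 CPM and 123 and 134 CPM. MAGT1 was thus called in all 4 clones, but by -3.59, -3.31, -0.45 and -0.47 on the log2 scale, a difference of -2.99 (95% confidence interval -3.13 to -2.84). In both shIRE1 clones it was already at -3.35 and -3.10 by 24 h. PGF, a growth factor picked after its values were seen, was the 1 higher gene with at least 1 in size in each clone, but at a mean of -2.03 log2 CPM its fitted changes rest on very few counts and are not given.

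**Figure D4:**
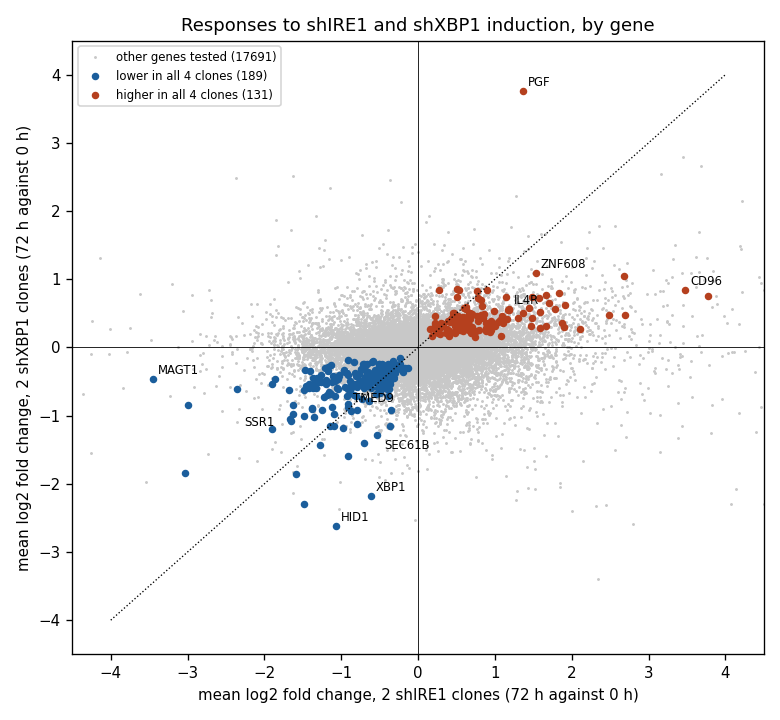
Mean log2 fold change of the shIRE1 clones (horizontal) and of the shXBP1 clones (vertical) at 72 h against 0 h for each gene tested, with genes lower in all 4 clones in blue, genes higher in all 4 in red, the others in grey and a dotted line where both are equal. MAGT1 and CD96 lie near the horizontal axis, far from the dotted line, TMED9 lies on that line, and HID1 and XBP1 lie below it. Outside the axes lie 47 genes, 1 of them common.

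The earlier times were read beside 72 h. They share the 0 h libraries with it, and the genes were chosen at 72 h, so these values are a description. The 189 lower genes had medians at 24, 48 and 72 h of -0.416, -0.665 and -0.681 in shIRE1 clone 1 and of -0.438, -0.806 and -0.849 in shIRE1 clone 3. In shXBP1 clone 1 they were -0.377, -0.456 and -0.485, and in shXBP1 clone 18 -0.346, -0.408 and -0.473. In each clone more of the median change came by 24 h than between 24 and 72 h. SSR1 was at -1.31, -1.40, -0.97 and -0.76 by 24 h, at which time XBP1 mRNA was at 0.09 and -0.14 in the shIRE1 clones. TMED9 was at -0.51, -0.54, -0.72 and -0.65. The 131 higher genes had medians at 24, 48 and 72 h of 0.505, 0.703 and 0.685 in shIRE1 clone 1, 0.41, 0.723 and 0.694 in shIRE1 clone 3, 0.29, 0.36 and 0.407 in shXBP1 clone 1, and 0.216, 0.271 and 0.327 in shXBP1 clone 18. ZNF608 was at 1.67 and 1.25 in the shIRE1 clones by 24 h.

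**Figure D5:**
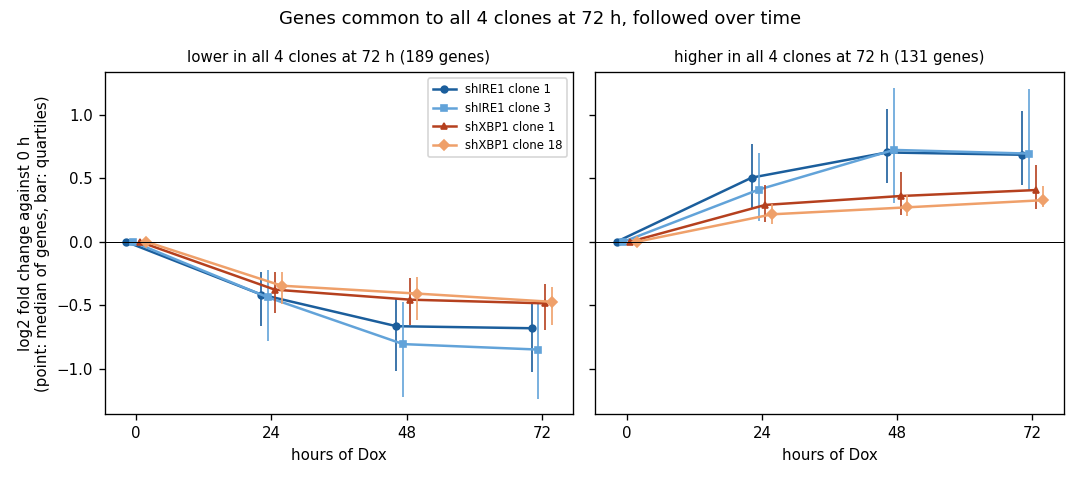
Median log2 fold change against 0 h (points) and quartiles (bars) of the 189 lower genes (left) and the 131 higher genes (right) after 24, 48 and 72 h of Dox, 1 line per clone. Lower genes go from -0.346 to -0.438 at 24 h to -0.473 to -0.849 at 72 h, with the shIRE1 clones farther from 0 than the shXBP1 clones at 48 and 72 h.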

How the data were processed

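Polyadenylated RNA of AMO1 clones was sequenced as single ends after a stranded library preparation. The authors deposited gene counts, used for all main results, and a log2 CPM table scaled by TMM, used with limma. Per the labels, the submitters' processing notes name GSNAP, R 4.1.3, edgeR 3.32.1, limma 3.46.0 and the builds GRCh37 and hg19. The study's methods name a later build for a related experiment, so no gene coordinates of the count table are given. Whether counting used strand is not given in the sources used here. Named genes whose exons overlap no other gene include XBP1, TMED9, SEC24D, DNAJB9, RPN1, SLC1A4, MAGT1, ZNF608, SORL1 and CD96.

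Genes passed filterByExpr at a minimum count of 10 and a total of 15. TMM-scaled counts of 23 libraries were fitted by edgeR 4.0.16 (R 4.3.3) with a mean for each clone and time, and the Benjamini-Hochberg threshold was 0.05 over 18011 genes. CPM values use TMM-scaled library sizes. Contrasts were 72 h against 0 h in each clone, the difference among clones and that between targets, and a further fit had clone as a block. DESeq2 1.42.0, limma 3.58.1, RLE scaling, no filter, other sets of libraries, a replicate block and leaving out each library were alternatives, of which those for the differences were chosen after seeing the data. No replicates agreed within sampling noise (chi-square of at least 1.67 per gene). The value was highest for shXBP1 clone 1, 0 h replicate 1, at 43.1 and 43.6 against replicates 2 and 3, which gave 2.65 with each other. Without that library 191 higher and 204 lower genes were common. In shIRE1 clone 3 the chi-square reached 22.5 at 0 h and 21.5 at 72 h.

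Members and lists were chosen with earlier results of these data known. Some genes are not reported here. Named were the targets and, among common genes with a mean above 1 log2 CPM and no overlap of groups in any clone, the 12 lower and 12 higher with the largest smallest change. Up to 3 members of each list were added by that ranking, and up to 3 genes in each direction with the narrowest range over the clones at a smallest size of at least 0.5. P-values within a clone measure the spread between its replicate cultures. Tests and intervals of differences between targets rest on such spread too and leave out that between clones.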

Additional observations from a re-analysis of the deposited data

Results flagged for a closer look

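For the genes whose changes are given here, the 72 h response was looked at again wherever it differed between the shIRE1 clones and the shXBP1 clones in edgeR's test of that difference, at an adjusted p below 0.05. Groups held 3 samples or fewer, and these genes were not examined for single outlying samples. Values are mean shIRE1 minus mean shXBP1 log2 fold changes of 2 clones each. The test rests on the spread between replicate libraries, so a single clone can set such a difference. DNAJB9, for instance, changed by -1.40 in shIRE1 clone 1 and by -1.56 in shXBP1 clone 18, and ERLEC1 by -0.53 and -0.62. Further, below, thus refers to the means of the clones. Among common lower genes, those that fell further after shIRE1 were SSR1 (-0.57), P4HB (-0.33), SEC24D (-0.65), MYDGF (-0.48), KCNAB1 (-0.47), DNAJB9 (-0.71), SSR3 (-0.50), SPCS3 (-0.37), SELENOS (-0.59), ERLEC1 (-0.25), STT3A (-0.45), RPN1 (-0.77), SLC3A2 (-0.62), ATF4 (-0.72), NDUFB6 (-0.36), CDC6 (-1.37), FEN1 (-0.91), EBP (-0.89), MAGT1 (-2.99) and UFM1 (-0.62). Common lower genes that fell further after shXBP1 were XBP1 (1.56), SLC1A4 (0.20), SLC39A7 (0.17), IGHA1 (0.68), HID1 (1.56), SEC61A1 (0.33), SEC61B (0.76), MZB1 (0.70), PLOD3 (0.79) and CNPY2 (0.57). Common higher genes that rose further after shIRE1 were ZNF608 (0.44), SORL1 (0.90), CHODL (0.75), CD96 (2.64), AC097478.1 (1.22), IL4R (0.62), L3MBTL3 (0.45), AC080112.2 (1.06), CUX2 (0.87), FAS (0.70), PPM1D (0.16), HK1 (0.34), HLA-DRA (1.29), HLA-DRB1 (1.35), HLA-DPB1 (1.16), RFX5 (0.91) and BCL2L11 (0.71). JHDM1D-AS1 (-0.30) rose further after shXBP1. Of the genes named without their changes, SYVN1 (0.32) fell further and PGF, at very few counts, rose further after shXBP1. Of the genes that were not common, ERN1 differed by -1.46 and CIITA by 1.79. Over all 18011 genes tested, 28.2% moved lower and 28% moved higher after shIRE1 than after shXBP1, so a difference of this kind is frequent. What lies behind these differences was not tested.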

How the results depend on the processing

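The common counts were 131 higher and 189 lower. With RLE in place of TMM they were 131 and 186, without a filter on low counts 98 and 220, with DESeq2 133 and 196, with limma on deposited log2 values 116 and 190, with 47 libraries of all times 142 and 193, with each clone fitted alone 94 and 196, and with the library labelled shXBP1 clone 18, 72 h replicate 3 kept 155 and 221, of which 83 and 173 were shared. A change of at least 0.5 on the log2 scale in each clone besides left 11 higher and 49 lower genes. Leaving out each of the 23 libraries in turn gave 40 to 191 higher and 133 to 204 lower genes. The lowest counts, 40 and 133, came without shXBP1 clone 18, 72 h replicate 2, where the lone library left in that group is assumed to vary like the others. In all 23 such fits 25 higher and 105 lower genes were called. With the clone as a block these fits gave 3906 to 4681 higher and 3587 to 4423 lower genes. The replicate numbers were taken to pair samples only if all same-numbered pairs of 0 h and 72 h libraries deviated together, at a correlation over 0.1. That held for 6 of 11 pairs (range -0.56 to 0.79), among them all 5 in the shXBP1 clones (0.541 to 0.79). These 5 are not separate evidence. The 2 libraries at 72 h of shXBP1 clone 18 deviate as mirror images, at 0.61 and 0.615 for like numbers and -0.61 and -0.615 for unlike ones. In shXBP1 clone 1, unlike numbers among replicates 2 and 3 gave 0.51 and 0.563. The numbers were therefore not taken to pair samples over all 4 clones. A replicate block gave 66 higher and 162 lower common genes, and 3334 higher and 3212 lower with the clone as a block besides. Of 66 named common genes, 41 kept the call whichever library was left out and 48 under all other settings, and none changed sign. With 2 libraries at 72 h, shXBP1 clone 18 is measured least precisely (median SE 0.136, against 0.121 in the other clones). Its changes were also the most narrowly spread. In the fit of 47 libraries, its quartiles over all genes tested at 72 h were -0.177 and 0.15. They were -0.278 and 0.262 in shXBP1 clone 1, -0.376 and 0.46 in shIRE1 clone 1, and -0.411 and 0.478 in shIRE1 clone 3. As the clone with the fewest calls, shXBP1 clone 18 limits what can be called common. What part precision or size of change has in this was not tested.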

Other observations

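HLA-DRA, HLA-DRB1, HLA-DPB1 and RFX5 were higher in all 4 clones. They and the genes below were picked after their values were seen, with no list or count behind them. HLA-DRA encodes the alpha chain of HLA-DR. HLA-DRA in shIRE1 clone 1 went from 390, 404 and 396 CPM without Dox to 1137, 1180 and 1169 CPM after 72 h, and in clone 3 from 477, 427 and 431 to 1332, 1303 and 1445 CPM. For HLA-DRA, shXBP1 clone 1 gave 348, 366 and 367 CPM without Dox and 427, 437 and 444 CPM after 72 h, and clone 18 gave 563, 560.2 and 576 CPM and 686 and 706 CPM. All 72 h libraries of HLA-DRA lay above all 0 h libraries of their clone, with log2 fold changes of 1.55, 1.61, 0.28 and 0.30 (SE 0.045 to 0.0498; edgeR, largest adjusted p = 0.000368). HLA-DRB1, whose reads can be split with near copies, changed by 1.65, 1.67, 0.31 and 0.32, HLA-DPB1 by 1.49, 1.44, 0.38 and 0.24, and RFX5, a factor of the complex that binds class II promoters, by 1.0, 1.16, 0.18 and 0.17. CIITA, the coactivator of these promoters, was not called in all 4 clones, at 1.71, 2.37, -0.02 and 0.52. HLA-DPB1 lost a call without any 1 of shXBP1 clone 18, 0 h replicate 2 or 72 h replicates 1 and 2 (largest adjusted p = 0.189, edgeR). RFX5 lost a call without any 1 of shXBP1 clone 18, 72 h replicates 1 and 2 (largest adjusted p = 0.0721, edgeR). The calls of HLA-DRA, HLA-DRB1 and HLA-DPB1 were lost with the library labelled shXBP1 clone 18, 72 h replicate 3 kept. Those of HLA-DPB1 and RFX5 were also lost without a filter, with each clone fitted alone and with a replicate block. The summed level of the 6 B cell markers, of which CIITA was the most abundant, was 36.5 to 58 CPM at 0 h and 53.1 to 234 CPM at 72 h, with PAX5 at or near 0.

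UFM1, a ubiquitin-like modifier put on ribosomes at the ER, changed by -0.93, -1.14, -0.43 and -0.39. UFM1 lost a call without shXBP1 clone 18, 72 h replicate 1 (adjusted p = 0.121, edgeR). CREB3, an ER-tethered transcription factor, changed by -0.29, -0.85, -0.38 and -0.63 (SE 0.0673 to 0.0754; edgeR, largest adjusted p = 0.00101). Among the higher genes, BCL2L11, which encodes the death protein BIM, was called in all 4. BCL2L11 in shIRE1 clone 1 went from 154, 146 and 144 CPM without Dox to 230.2, 243 and 239 CPM after 72 h, and in clone 3 from 123, 122 and 122 to 365, 362 and 368 CPM. For BCL2L11, shXBP1 clone 1 gave 76.4, 82 and 80.4 CPM without Dox and 109, 115 and 116 CPM after 72 h, and clone 18 gave 95.3, 99.9 and 96 CPM and 119.8 and 122 CPM. No groups overlapped, and the log2 fold changes were 0.68, 1.58, 0.51 and 0.32 (edgeR, largest adjusted p = 5.28e-05).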
